A study of Sus scrofa with 4 samples.

Results

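The mRNAs of the large-subunit cytosolic ribosomal proteins were described gene by gene in porcine (Sus scrofa) oocytes matured in vitro with or without added copper. Members were the rows with values whose gene symbol was RPL followed by a number, with an optional A, L or L and digit, or RPLP0, RPLP1 or RPLP2. The pattern took 50 symbols of the table and 49 of them had values, out of 16050 genes with values. RPL3L was the symbol without values. The pattern used gene symbols and not the expression values, though earlier results of these data were known when the members were chosen.

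Female oocytes at metaphase II were compared in 2 groups. Control oocytes were matured without added Cu, and Cu-exposed oocytes were matured in medium to which 25 μg/mL Cu had been added as copper sulfate. The culture time of 44 h and the dose are those of the study in general. Both groups came from cumulus-oocyte complexes of slaughterhouse ovaries and were cultured in the same medium with follicular fluid, growth factor and gonadotrophins. Each library pooled 3 oocytes, so a value is a mean over few cells and one library cannot show how oocytes differ among themselves. Control replicates 1 and 2 and Cu replicates 1 and 3 were analysed, and the groups are called by their labels throughout. Transcripts were copied and amplified by Smart-seq2, a method for very small amounts of polyadenylated RNA. Whether the libraries of a group came from separate collections of ovaries is not given, so the spread between these libraries may be technical. The standard errors come from limma, which combines a gene's own spread between libraries with that of genes at similar levels.

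The large ribosomal subunit holds the centre where peptide bonds are made, the tunnel through which the new chain leaves, and the stalks that recruit translation factors. Each of its proteins is needed in nearly equal number, and their mRNAs usually carry a 5′ terminal oligopyrimidine (TOP) tract, through which their translation is controlled together by mTOR signalling. Growing oocytes build up a large store of ribosomes, and the fully grown oocyte is transcriptionally quiet, so that mRNA levels at metaphase II depend on storage, polyadenylation and decay. Ribosomal protein mRNAs are known to be kept with short poly(A) tails in maturing oocytes of other vertebrates.

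Levels are given in FPKM, fragments per kilobase of transcript scaled to the mapped fragments of a library, which corrects for length and allows genes to be compared. The FPKM summed to between 616082 and 672681 per library, and between 7923 and 9364 genes reached 1 FPKM, with Cu 1 the highest in that count. FPKM keeps no read number, so depth is unknown here and no interval that needs it is given. Among oocyte markers all 12 were tested, and OOEP, a protein of the subcortical maternal complex, had between 1006 and 3075 FPKM. Levels differed widely among the 12, and OOEP was among the highest. DDX4 had between 2.52 and 4.59 FPKM and NLRP5 between 1.88 and 8.70 FPKM. Of 18 cumulus or granulosa cell markers 12 had values and 2 were tested, and apart from KITLG, which oocytes can also express, they summed to 1.45 and 2.06 FPKM in Control 1 and 2 and to 2.71 and 1.07 FPKM in Cu 1 and 3. KITLG was the most abundant of these markers in every library. Its level was 12.5 FPKM in Control 1, 15.8 FPKM in Control 2, 16.2 FPKM in Cu 1 and 23.1 FPKM in Cu 3. Both Cu libraries were thus above the Control range for KITLG. When it was included, the marker sum ranged from 13.9 FPKM (Control 1) to 24.2 FPKM (Cu 3). Whether KITLG came from oocytes or from somatic cells was not tested. AMH was listed at 0 in all 4 libraries.

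Levels of the members differed widely within each library. The median member had 11.5 FPKM in Control 1, 13.4 FPKM in Control 2, 81.2 FPKM in Cu 1 and 20.5 FPKM in Cu 3. Cu 1 stood far above the other libraries in this value, and Cu 3 lay above both Control libraries. Under 10 FPKM were 22 members in Control 1 and 23 in Control 2, against 6 in Cu 1 and 12 in Cu 3. Summed over the 49 members, the level was 3548 and 4070 FPKM in Control 1 and 2, or 0.543% and 0.661% of all FPKM. In Cu 1 and 3 the sums were 11100 and 7709 FPKM, or 1.68% and 1.15% of all FPKM. The 5 highest members carried between 54.1% of that sum in Cu 1 and 67.4% in Cu 3, and 58.0% and 65.1% in the Control libraries. Among the tested members the mean FPKM of the highest was 953 times that of the lowest, and both of these, RPL26L1 and RPL22L1, are divergent copies. The order of the members was similar between libraries, with a Pearson correlation of log2(FPKM + 1) over 47 members of 0.974 between the Control libraries, 0.895 between the Cu libraries and 0.973 between Control 2 and Cu 3. These correlations are over genes of the same libraries and describe them only.

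**Figure D1:**
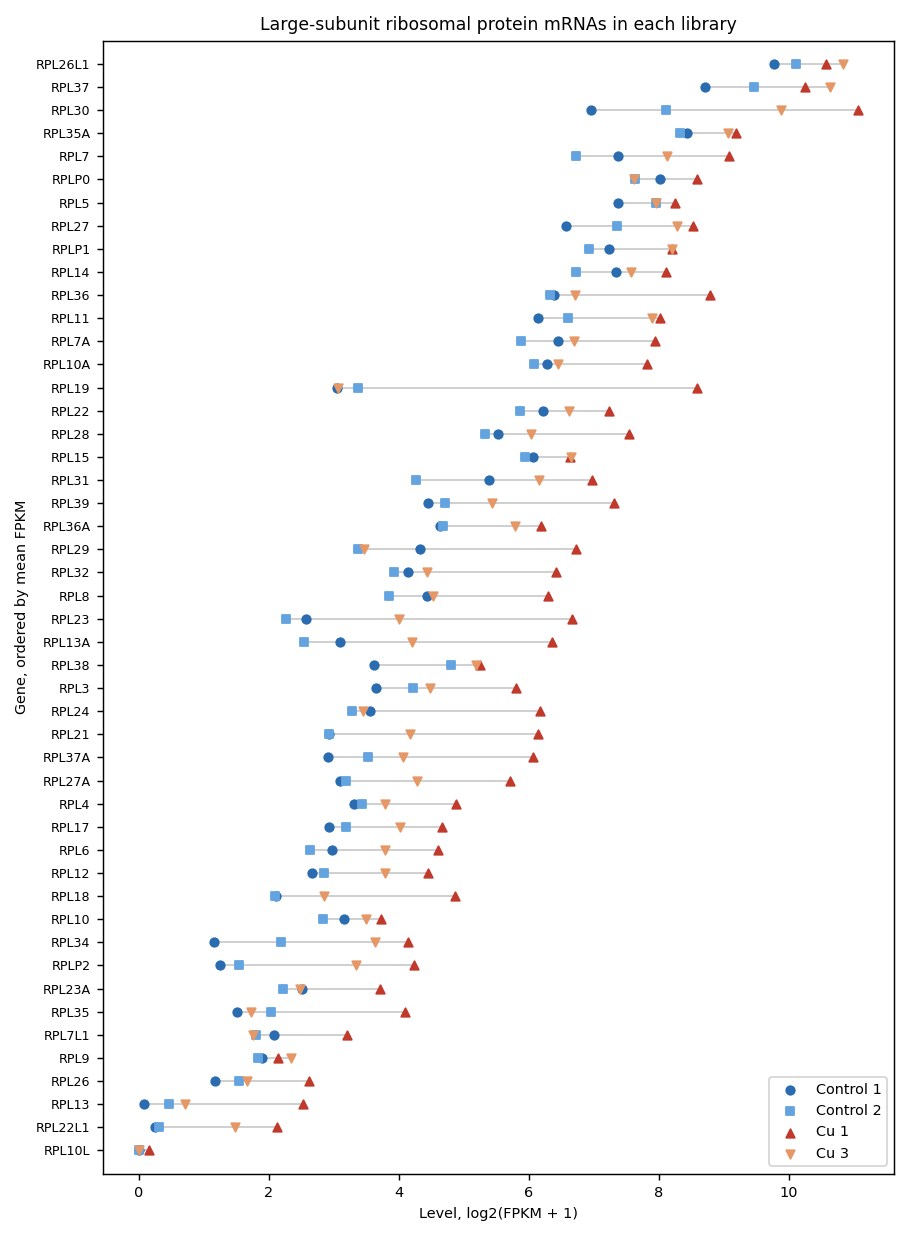
Level of 48 large-subunit genes as log2(FPKM + 1) on the horizontal axis in Control 1, Control 2, Cu 1 and Cu 3, with genes ordered by mean FPKM and a grey line from the lowest to the highest library. Cu 1 is the rightmost point for most genes, and Cu 3 lies between Cu 1 and the Control points for most of them.

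All tested large-subunit genes had a higher mean level in the libraries labelled Cu than in Control, and none passed the test over all genes. Genes entered the test where 2 libraries reached 1 FPKM, which kept 47 of the 49 members and 8541 genes in total, and log2(FPKM + 1) was compared with limma. The log2 fold changes of the 47 ran from 0.28 to 2.95 with a median of 1.36, compared with a median of 0.16 over all tested genes, and 64.3% of them were above 0. Each library pooled 3 oocytes, so a change in all of them and a change in part of them cannot be told apart. RPL22L1 reached 1 FPKM in the Cu libraries alone and so could enter the test only by being higher there. RPL13 and RPL10L were not tested. The adjusted p values of the members lay between 0.631 and 0.882 (limma, Benjamini-Hochberg over 8541 genes), and 0% of all tested genes passed an adjusted p of 0.05. Taking the unadjusted p alone at the limit of 0.05, 25 members passed, all higher in Cu, while 7.01% of all tested genes passed in either direction, 5.58% higher and 1.43% lower. When the log2 fold change also had to reach 1.5, 14 of 47 members were called higher and 0 lower, against 1.76% and 0.117% of all tested genes. Asking for 1 FPKM in every library left 46 members, with 13 called higher and a median of 1.35. Of the 7288 genes left in that setting, 119 were called higher, and their median was 0.14.

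Separation of the groups was described beside these calls and covers the 4 libraries alone. The Cu libraries both exceeded the higher Control library in 39 of the 47 members, where 25.4% of all tested genes did so, and in 0 members both were under the lower Control library, where 13.4% were. Cu 1 by itself exceeded the higher Control library in 47 members and Cu 3 in 39, compared with 58.1% and 37.4% of all tested genes. For a single gene in this design of 2 and 2 libraries, the smallest p of an exact permutation test, taken two-sided, is 0.333. The 8 members whose groups overlapped were RPLP0, RPL5, RPL19, RPL23A, RPL24, RPL29, RPL35 and RPL7L1, of which RPL23A and RPL35 fall outside the rule for named genes, as do RPL4, RPL8, RPL10A, RPL17 and RPL36A below, and were chosen after their values were seen. In each of the 8, Cu 1 was above both Control libraries and Cu 3 was not. Cu 1 was the highest of the 4 libraries in 42 members and Cu 3 in 5, compared with 51% and 19.2% of all tested genes.

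How far the difference went depended on the library left out. Without Cu 1 the median of the 47 was 0.69, against 0.0023 over all tested genes, with 42 members higher and 5 lower. Of the 8541 tested genes, 4297 were higher with Cu 1 left out. Without Cu 3 the median of the 47 was 1.80, against 0.31 over all tested genes. Without Control 1 or Control 2 it was 1.35 and 1.27, against 0.12 and 0.21 over all tested genes. In the fits without a Cu library the remaining one is assumed to vary like the Control libraries, and then 7 members without Cu 1 and 40 without Cu 3 passed the adjusted limit in limma. Those 2 fits also called 186 and 1755 of all tested genes.

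**Figure D2:**
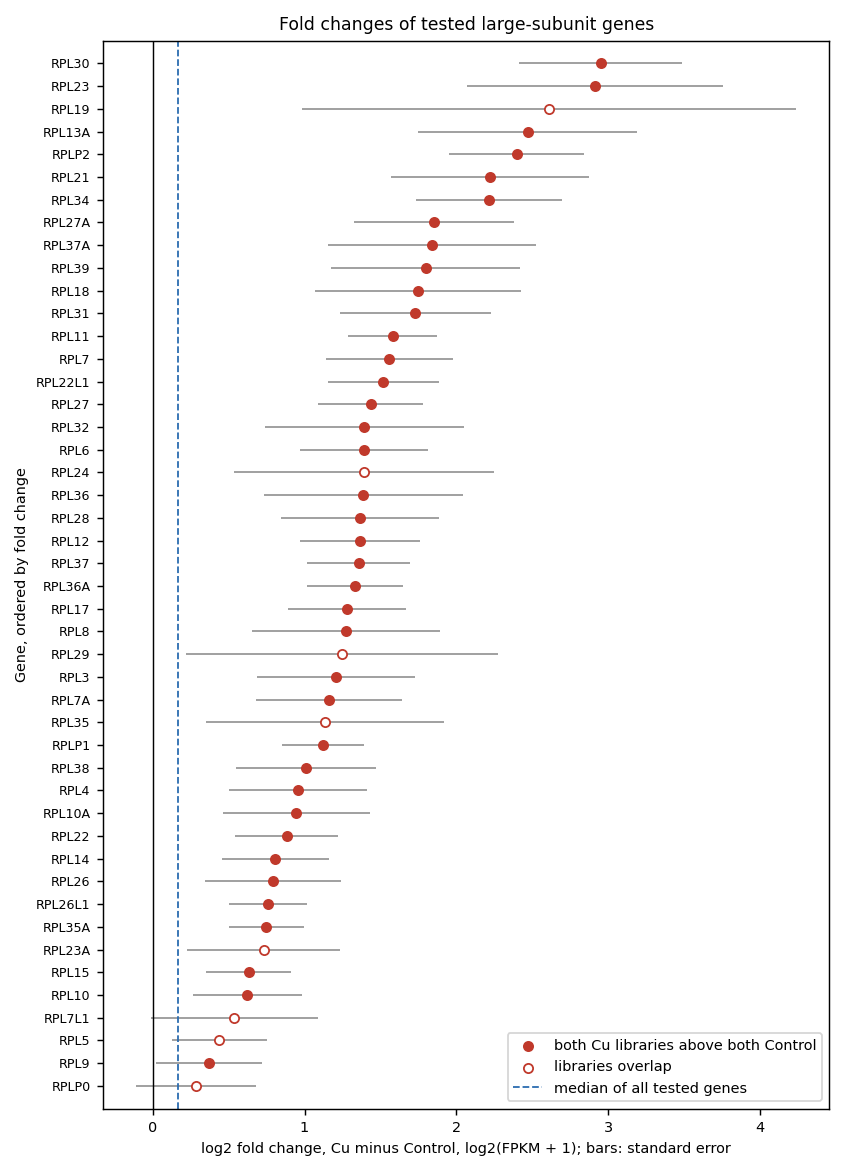
Log2 fold change (Cu minus Control, on log2(FPKM + 1)) of 46 tested large-subunit genes with standard errors from limma, filled where the groups did not overlap and open where the libraries overlapped. All points lie to the right of 0 and of the dashed line at 0.16, the median of all tested genes, and RPL19 has the longest bar with a standard error of 1.63.

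The ribosomal stalk binds elongation factors and consists of RPLP0, the base protein RPL12 and dimers of RPLP1 and RPLP2. RPLP0 (identifier 100049695), which anchors the dimers, had 258 and 197 FPKM in Control 1 and 2, against 385 and 196 FPKM in Cu 1 and 3. Cu 3 was thus just below the lower Control library, and the log2 fold change of 0.28 (standard error 0.39) was the smallest of all tested members. Without Cu 1 it turned to -0.20. RPLP1 (identifier 100170119) had 150 and 120 FPKM in the Control libraries, against 293 and 294 FPKM in the Cu libraries, giving a log2 fold change of 1.12 (standard error 0.27). Here the Cu libraries were nearly equal and the groups did not overlap in these libraries. The authors' group means of RPLP1 were closer, at 211 FPKM for Control and 260 FPKM for Cu. RPLP2 (identifier 100513643), the partner of RPLP1 in the dimer, had 1.36 and 1.90 FPKM in Control 1 and 2, against 17.9 and 9.08 FPKM in Cu 1 and 3, giving a log2 fold change of 2.40 (standard error 0.44). RPLP1 was therefore 110 and 63.3 times as high as RPLP2 in the Control libraries, and 16.4 and 32.4 times as high in the Cu libraries, although the proteins pair with each other. RPL12 had 5.33 and 6.17 FPKM in Control 1 and 2, against 20.9 and 12.8 FPKM in Cu 1 and 3, giving a log2 fold change of 1.36 (standard error 0.39).

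RPL5 and RPL11 join the 5S ribosomal RNA before it enters the subunit, and when free they bind MDM2 and so relieve p53 of its inhibitor. RPL5 (identifier 100135671) had 165 and 248 FPKM in Control 1 and 2, against 305 and 248 FPKM in Cu 1 and 3. Cu 3 equalled Control 2 within 1 FPKM and the log2 fold change was 0.44 (standard error 0.32). RPL11 (identifier 414422) had 69.7 and 95.7 FPKM in the Control libraries, against 257 and 236 FPKM in the Cu libraries. In these libraries the Cu values were near each other and far above the Control values. RPL11 had an authors' mean of 137 FPKM for Control, above both Control libraries, and of 230 FPKM for Cu. Its log2 fold change of 1.58 (standard error 0.30) was among the 14 calls, and it was 1.52 without Cu 1 and 1.64 without Cu 3. Of the partners in this particle, the values of RPL11 were thus apart between the groups in these libraries and those of RPL5 were not. Whether the fold changes of RPL5 and RPL11 differ from each other was not tested.

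Near the peptidyl transferase centre and the tRNA sites, 4 members were tested and all had Cu libraries above the Control range. Their log2 fold changes were between 0.62 and 1.33, with 0 calls at the limits. Over the 47 tested members 39 were so separated and 14 called higher, against 25.4% and 1.76% of all tested genes. RPL3 (identifier 396768), one of the first proteins to bind the precursor RNA, had 11.5 and 17.6 FPKM in Control 1 and 2, against 54.8 and 21.3 FPKM in Cu 1 and 3, giving a log2 fold change of 1.21 (standard error 0.52). RPL10 (identifier 733593), which is added last and lets the export adaptor NMD3 leave, was low in every library with 7.87 and 6.12 FPKM in Control, against 12.2 and 10.3 FPKM in Cu. The resulting log2 fold change was 0.62 (standard error 0.36). RPL8 and RPL36A, the latter at the exit site of the tRNA, had log2 fold changes of 1.27 and 1.33.

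RPL4, RPL17 and RPL39 line the wall of the exit tunnel, and all 3 had separated groups. Separation upward was found in 39 of the 47 tested members and in 25.4% of all tested genes. RPL39 (identifier 100515520), one of the smallest ribosomal proteins, had 20.8 and 25.1 FPKM in Control 1 and 2, against 158 and 42.3 FPKM in Cu 1 and 3. The resulting log2 fold change was 1.80 (standard error 0.62), with Cu 1 at 3.73 times the FPKM of Cu 3. RPL4 and RPL17 had log2 fold changes of 0.96 and 1.28.

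At or near the rim of the tunnel, where chaperones and the signal recognition particle dock, 6 members were tested. Their log2 fold changes lay between 0.73 and 2.61, and in 3 of the 6 the groups did not overlap. Both Cu libraries exceeded both Control libraries in 39 of the 47 tested members and in 25.4% of all tested genes. RPL19 (identifier 396989) had 7.24 and 9.37 FPKM in Control 1 and 2, 383 FPKM in Cu 1 and 7.31 FPKM in Cu 3. Cu 1 alone stood apart, at 52.4 times the FPKM of Cu 3, and RPL19 ranked 32 and 28 among the 49 members in Control, whereas its rank was 8 in Cu 1 and 40 in Cu 3. The log2 fold change of 2.61 had a standard error of 1.63 and turned to -0.15 without Cu 1. The gene spans 23029377 to 23034337 on chromosome 12 of Sscrofa11.1, the build named in the submitters' processing notes. RPL31 had 41.0 and 18.1 FPKM in the Control libraries, against 124 and 69.9 FPKM in the Cu libraries, giving a log2 fold change of 1.73 (standard error 0.50). The lowest member of the rim, RPL26, is described with its copy RPL26L1 below. RPL35 and RPL23A, which form the docking site beside the tunnel opening, had 1.85 to 4.67 FPKM in the Control libraries, 16.1 and 12.1 FPKM in Cu 1, and 2.30 and 4.57 FPKM in Cu 3, which for both lay within the range of their Control libraries.

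RPL24 and RPL30 form bridges to the small subunit, and RPL10A is the protein of the L1 stalk, which guides spent tRNA out. RPL30 (identifier 100156811) had 123 and 274 FPKM in Control 1 and 2, 2153 FPKM in Cu 1 and 945 FPKM in Cu 3. Both Cu libraries were more than 3 times as high as either Control library, and the log2 fold change of 2.95 (standard error 0.53) was the largest of all tested members, with an adjusted p of 0.631 in limma. RPL30 ranked 9 and 4 among the members in the Control libraries and 1 and 3 in Cu 1 and 3. The log2 fold change was 2.36 without Cu 1, the largest of the members there, and 3.54 without Cu 3, where RPL19, RPL23 and RPL13A were larger. Its gene lies on chromosome 4, from 38702220 to 38720420 of Sscrofa11.1. RPL24 had 10.7 and 8.71 FPKM in Control 1 and 2, 71.1 FPKM in Cu 1 and 9.85 FPKM in Cu 3, so that Cu 3 fell between the Control libraries and the log2 fold change of 1.39 (standard error 0.86) rested on Cu 1. Without Cu 1 it was 0.024. RPL10A had a log2 fold change of 0.95 (standard error 0.48).

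Divergent copies of large-subunit genes encode proteins that replace or resemble those of their parent genes in some tissues. RPL26L1 (identifier 100216316) was the most abundant member in 3 of the 4 libraries, with 873 and 1101 FPKM in Control 1 and 2, against 1516 and 1821 FPKM in Cu 1 and 3. Its parent RPL26 (identifier 100627662) had 1.25 and 1.89 FPKM in the Control libraries, against 5.15 and 2.18 FPKM in the Cu libraries. The copy was between 294 and 835 times as high as the parent. Both are close in sequence, and whether reads were divided between them or assigned to a single gene was not tested. Their sum was 875 and 1103 FPKM in Control, against 1521 and 1823 FPKM in Cu, nearly the level of RPL26L1 alone. The log2 fold changes were 0.76 (standard error 0.26) for RPL26L1 and 0.79 (standard error 0.45) for RPL26. RPL26L1 lies on chromosome 16, from 51267492 to 51276692, and RPL26 on chromosome 12, from 53548313 to 53553453 of Sscrofa11.1.

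The other copies were far below their parents. RPL22 had 73.7 and 57.2 FPKM in Control 1 and 2, against 149 and 97.4 FPKM in Cu 1 and 3, and RPL22L1 had 0.19 and 0.24 FPKM in Control, against 3.35 and 1.79 FPKM in Cu. Their log2 fold changes were 0.88 (standard error 0.34) and 1.52 (standard error 0.37), and that of RPL22L1 is made smaller by the added 1. RPL7 had 165 and 105 FPKM in Control, against 541 and 279 FPKM in Cu, giving a log2 fold change of 1.56 (standard error 0.42). RPL7L1, which acts in the nucleolus rather than in the finished ribosome, had 3.23 and 2.50 FPKM in Control, against 8.21 and 2.39 FPKM in Cu, with Cu 3 below both Control libraries. Its log2 fold change of 0.54 (standard error 0.55) turned to -0.18 without Cu 1. RPL10L, the testis copy of RPL10, was listed at 0 in both Control libraries and in Cu 3 and had 0.11 FPKM in Cu 1.

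Among the members with no role assigned above, 22 of 23 were tested, 21 had separated groups and 8 were called at the limits. The counts over all 47 tested members were 39 separated and 14 called, against 25.4% and 1.76% of all tested genes. RPL23 (identifier 414398), another protein that binds MDM2, had 4.96 and 3.79 FPKM in Control 1 and 2, 101 FPKM in Cu 1 and 15.0 FPKM in Cu 3, a log2 fold change of 2.92 (standard error 0.84) that was 1.58 without Cu 1 and 4.25 without Cu 3. RPL13A (identifier 780432), which also silences inflammatory mRNAs after interferon, had 7.56 and 4.78 FPKM in the Control libraries, against 81.2 and 17.5 FPKM in the Cu libraries, giving a log2 fold change of 2.47 (standard error 0.72). In both genes the groups were apart but Cu 1 stood several times above Cu 3. RPL37 (identifier 100626973) had 416 and 706 FPKM in Control, against 1215 and 1591 FPKM in Cu 1 and 3, giving a log2 fold change of 1.36 (standard error 0.34), and was one of the 5 members in which Cu 3 was the highest library. RPL34, chosen after its values were seen, had 1.23 and 3.54 FPKM in Control and 16.6 and 11.4 FPKM in Cu 1 and 3, with a log2 fold change of 2.21 (standard error 0.48), and with RPL30 and RPLP2 it was called at the limits in each of the alternatives run with the libraries' values, though the authors' means of RPL34 differed far less. RPL35A, one of the genes mutated in Diamond-Blackfan anaemia, had 344 and 319 FPKM in Control, against 581 and 533 FPKM in Cu, giving a log2 fold change of 0.75 with the smallest standard error of the members, 0.25.

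Smaller log2 fold changes and larger scatter were also found in this group. RPL9 was low and nearly even, with 2.72 and 2.56 FPKM in Control, against 3.39 and 4.03 FPKM in Cu, giving a log2 fold change of 0.37 (standard error 0.35). RPL29, a heparin-binding protein outside the ribosome, had 19.0 and 9.32 FPKM in Control, 104 FPKM in Cu 1 and 10.04 FPKM in Cu 3. Its Cu libraries lay on both sides of the upper Control value, and the log2 fold change of 1.25 (standard error 1.03) turned to -0.38 without Cu 1. RPL38, known for its part in translating Hox mRNAs, had 11.3 and 26.9 FPKM in Control, against 37.1 and 35.4 FPKM in Cu, giving a log2 fold change of 1.01 (standard error 0.46). With RPL34 included, the 14 members of this group outside the rule for named genes had log2 fold changes between 0.63 and 2.22. In all 14 the Cu libraries exceeded the Control range, as they did in 25.4% of all tested genes. RPL13 was not tested, since it reached 1 FPKM only in Cu 1, with 0.05 and 0.38 FPKM in Control, against 4.75 and 0.63 FPKM in Cu 1 and 3.

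Scatter between libraries of one group was unequal. Between the Control libraries the median difference of the 47 members was -0.063 on the log2(FPKM + 1) scale, ranging from -1.13 for RPL31 to 1.19 for RPL38, and 21 members were higher in Control 2. The differences of 4 members were 1 or more in size, among them RPL30, at 1.15. Between the Cu libraries the median difference, Cu 3 minus Cu 1, was -0.97, ranging from -5.53 for RPL19 to 0.39 for RPL37. In size it was 1 or more for 23 members, and after RPL19 the largest were -3.26 for RPL29 and -2.73 for RPL24. Over all tested genes the same medians were 0.074 and -0.30, and Cu 1 was above Cu 3 in 65.7% of all genes and in 42 of 47 members. The difference between the Cu libraries thus had the direction of all genes and was larger in the median of the members.

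Measured against the Control mean, Cu 1 was higher in all 47 members with a median of 1.80, and Cu 3 was higher in 42 members with a median of 0.69. In all tested genes the medians were 0.31 for Cu 1 and 0.0023 for Cu 3. Of these 8541 genes, 5726 were higher in Cu 1 and 4297 in Cu 3. The members ran from 0.27 to 5.38 in Cu 1 and from -0.38 to 2.36 in Cu 3. All tested genes ran from -2.8 to 5.6 in Cu 1 and from -3.1 to 3.4 in Cu 3. Both differences share the Control mean. RPL19 had the largest in Cu 1, at 5.38, and was at -0.15 in Cu 3, while RPL30 had 3.54 and 2.36 and was the highest in Cu 3.

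**Figure D3:**
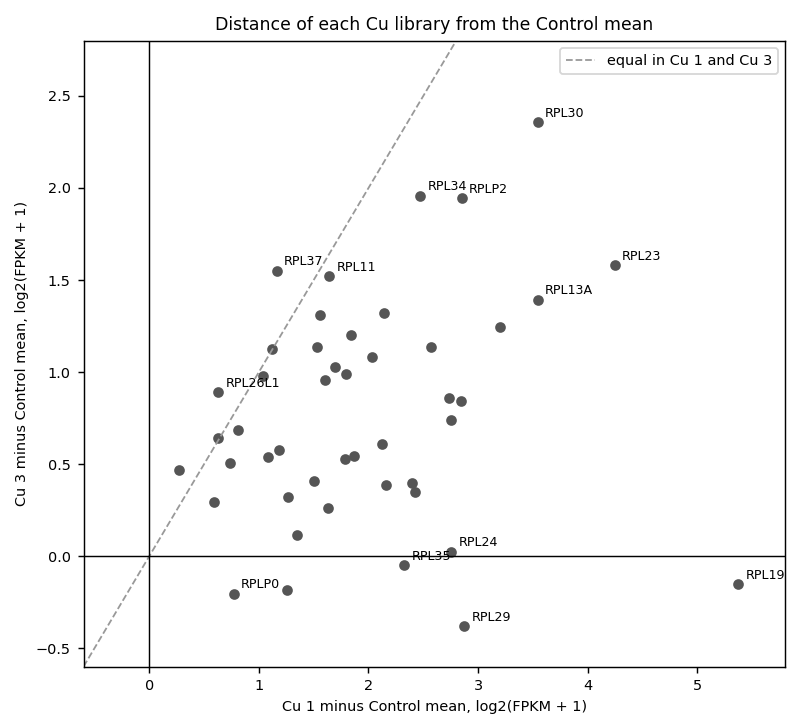
Difference of Cu 1 (horizontal axis) and of Cu 3 (vertical axis) from the Control mean on the log2(FPKM + 1) scale for 46 tested large-subunit genes, with a dashed line where both are equal. Most genes lie below the line, RPL19, RPL29 and RPL24 lie far to the right near or under 0 in Cu 3, and RPL30 is the highest in Cu 3 at 2.36.

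Other genes of ribosome production were set beside the large-subunit members. Of all tested genes 64.3% were higher, 25.4% were separated upward and 13.4% downward. At the limits 1.76% of all tested genes were called higher and 0.117% lower. Proteins of the small subunit had a median log2 fold change of 1.42 over 33 tested genes, 33 higher, 27 separated upward and 12 called at the limits. They ran from 0.34 for RPS27L and 0.46 for RPS24 to 2.84 for RPS25 and 3.12 for RPS26. RPL36AL, a copy of RPL36A that the symbol pattern leaves out, had a log2 fold change of 1.39. Factors that assemble the large subunit in the nucleolus and cytoplasm had a lower median of 0.35 over 36 tested genes, with 29 higher, 15 separated upward, 4 separated downward and 0 called in either direction. Among them SBDS, which releases the block on subunit joining, and TEX10 had the smallest values at -0.50 and -0.47, and MRTO4, which holds the place of RPLP0 during assembly, and AAMP, a chaperone of RPL10, the largest at 1.31 and 1.27. The mRNAs of translation factors and other proteins that share the TOP tract had a median of 0.48 over 14 tested genes, with 13 higher, 8 separated upward and 1 called, EIF3H. They ran from -0.0053 for BTF3 and 0.091 for EEF1G to 1.67 for EIF3H and 1.88 for RACK1, a protein of the small subunit. The oocyte markers had a median of 0.49 over 12 genes, with 9 higher, 3 separated upward and 0 called. The 3 oocyte markers separated upward and the 4 assembly factors separated downward were near the shares of all tested genes. Without Cu 1 the medians were 0.75 for the small-subunit proteins, 0.14 for the assembly factors and 0.35 for the other TOP mRNAs, and without Cu 3 they were 2.04, 0.33 and 0.95. Differences between these lists were not tested.

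**Figure D4:**
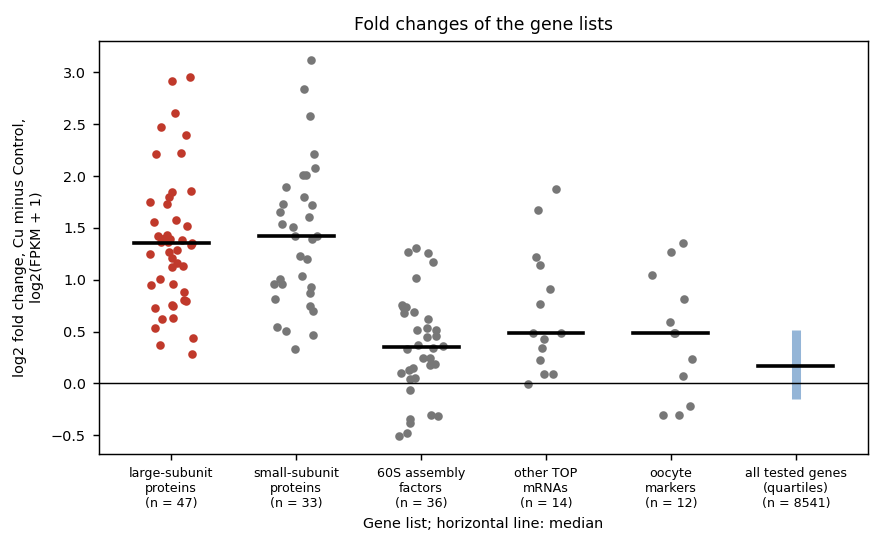
Log2 fold changes (Cu minus Control, on log2(FPKM + 1)) of the tested genes of each list, one point per gene with a line at the median, and the quartiles of all 8541 tested genes as a bar from -0.15 to 0.51. The medians are 1.36 for the large-subunit proteins, 1.42 for the small-subunit proteins, 0.35 for the assembly factors, 0.48 for the other TOP mRNAs and 0.49 for the oocyte markers.

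Levels of the markers and the number of genes detected moved with the members in part. Summed oocyte markers were 4370 and 5747 FPKM in Control 1 and 2, against 7897 and 5898 FPKM in Cu 1 and 3. Cu 1 thus had the highest sum, but not the highest value of every marker. BMP15, ZP4 and DDX4 were highest in Control 2, and ZP2 and DAZL in Cu 3. Cu 1 also had the most genes at 1 FPKM or more, 9364 against 8122 in Cu 3. The part of these in the differences of the ribosomal protein mRNAs was not tested. A changed number of transcripts in each oocyte and a change of a transcript's share in the library cannot be told apart in FPKM.

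The authors' mean columns gave smaller differences, and they cover more than the 4 libraries. AMH was listed at 0 in both Control libraries and had an authors' Control mean of 0.03 FPKM. By the authors' means, 44 of the 47 tested members were higher in Cu and 3 were lower, where 62.0% of all tested genes were higher. The 3 were RPL35A, RPL5 and RPL38, which the libraries had placed higher in Cu. The authors' mean FPKM of RPL35A was 525 for Control and 499 for Cu, that of RPL5 was 307 and 260, and that of RPL38 was 29.4 and 29.1. For all 3 the authors' Control mean was above both Control libraries used here. On the log2(mean FPKM + 1) scale the median difference of the 47 was 0.75, against 0.11 for all tested genes. For RPL30 the authors' means were 278 and 1371 FPKM. Those of RPL19 were 16.0 and 141 FPKM, where Cu 1 alone of the libraries was high. For RPL34 they were 8.93 and 11.6 FPKM, much closer together than the values of the 4 libraries.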

How the data were processed

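RNA of mature porcine oocytes was measured in 2 Control and 2 Cu libraries, grouped by their titles. In the study's methods, reads were filtered with SOAPnuke, mapped with HISAT2 and Bowtie2 and quantified with RSEM. The submitters' processing notes name TopHat2 2.0.13, Cufflinks 2.2.1, Cuffnorm and Cuffdiff with Sscrofa11.1 instead, and which of these gave the values is not stated. The authors deposited FPKM per library, rounded to 2 decimals, and a mean FPKM per group, used only as the authors' mean. The methods describe 3 sets of oocytes per group, and per-library values of the third sets were not analysed here. The labels name another sequencer (MGI-2000) than the methods (Illumina).

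From the FPKM, log2(FPKM + 1) was fitted for genes that reached 1 FPKM in 2 libraries with limma 3.58.1 (R 4.3.3, variance trend, Benjamini-Hochberg over 8541 genes). The planned test depended on the unit, and no count-based test was run on FPKM. Calls used an adjusted p of 0.05, or an unadjusted p of 0.05 together with a 1.5 difference in log2. The fit was run on simulated data with planted changes larger than those of the members and scatter mostly below that of the data. That run does not show how the fit does at the fold changes seen here.

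Members and gene lists were chosen with earlier results of these data known. Named were the stalk, the 5S particle, divergent copies with their parents, and the members with the 4 highest and 4 lowest levels, the 4 largest and 4 smallest fold changes, and the 3 largest differences within each group. In other lists the 2 largest and 2 smallest fold changes were named. RPL4, RPL8, RPL10A, RPL17, RPL23A, RPL34, RPL35 and RPL36A were named after their values were seen. Groups by place in the ribosome were written after the values were seen. All 49 identifiers matched the RefSeq table of Sscrofa11.1, from which positions were taken. RPL7A, RPL9, RPL12, RPL27A and RPL29 overlap another protein-coding gene in it, and use of strand in counting is not given in the sources used here. Ribosomal protein genes have many processed copies, with which reads could be shared. One member is counted but not reported here by itself or drawn gene by gene. No sequence was printed, since no sequence table was used here.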

Additional observations from a re-analysis of the deposited data

How the results depend on the processing

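No paired analysis was possible because the groups share only replicate number 1. Under the alternatives, the median of the large-subunit members stayed above 0, between 0.69 and 1.80 with a library left out, and at 0.75 by the authors' means. Quantile normalization, which moved the median of all genes from 0.16 to -0.049, gave 1.16 for the members, all 47 still higher. Calls at the limits with a library left out ranged from 6 to 32 for the members (14 with all libraries), and 11 to 15 under the other alternatives. Calls at an adjusted p ranged from 0 to 40 for the members and from 0 to 1755 for all genes, the last 2 without Cu 3. Over all genes the calls ranged from 77 to 741 higher and from 11 to 41 lower with a library left out. A pseudocount of 0.1 gave 246 higher and 24 lower, and quantile normalization or upper-quartile scaling gave 20 lower. For small-subunit proteins, leaving out a library gave 4 to 23 calls and medians of 0.75 to 2.04. For assembly factors it gave 0 to 6 calls and medians of 0.14 to 0.33 (0.35 with all libraries), the pseudocount of 0.1 gave 1 call, and quantile normalization and upper-quartile scaling gave medians of 0.18 and 0.21. For other TOP mRNAs it gave 0 to 6 calls and medians of 0.35 to 0.95 (0.48 with all libraries), upper-quartile scaling gave 0 calls and a median of 0.31, and quantile normalization a median of 0.29. Without Cu 1, the fold changes of RPL19 (-0.15), RPL29 (-0.38), RPL7L1 (-0.18) and RPLP0 (-0.20) turned negative, as did that of RPL35, and without Cu 3 the same 4 fold changes were 5.38, 2.88, 1.26 and 0.77. The cause was not tested. Depth is unknown, so the precision of weakly expressed members such as RPL22L1 and RPL26 is not known.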
